A study of Mus musculus with 30 samples.

Results

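Cardiac myocytes of mice with 1 floxed copy of the desmoplakin gene Dsp were compared with wild-type cardiac myocytes after endurance exercise on a treadmill. The comparison holds 10 of the 30 total RNA libraries of the series. The exercised heterozygotes are 5 libraries of genotype Myh6-Cre:DspW/F from mice of 6 months, numbered here as in their labels, and the exercised wild types are 5 libraries from mice of the same age. All 10 were taken by their labels, without use of any measured value. Both groups were exercised, and the series' design text places them 3 months after (post) the exercise, a phrase that could also mean 3 months of exercise. The remaining 20 libraries were used here for the spread and for repeat comparisons. They are 5 Myh6-Cre:DspW/F and 5 wild-type libraries from mice of 6 months and 5 of each genotype from mice of 3 months. All 20 are labelled as regular activity, not as exercised. The Myh6 promoter drives Cre recombinase in cardiac myocytes, so the floxed allele is recombined in those cells and not in the whole animal. The labels do not say whether wild-type mice carried Cre, nor whether each library is a separate animal, so p-values measure the spread between these libraries, which may be technical.

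Desmoplakin is the plaque protein that ties the desmosome, the spot junction between neighbouring myocytes, to the desmin filaments inside the cell. Desmosomes sit in the intercalated disc together with adherens and gap junction proteins and pass mechanical force from cell to cell. In humans, loss of 1 working copy of DSP is a cause of arrhythmogenic cardiomyopathy, a disease of the heart muscle with fibrofatty replacement and arrhythmia in which endurance exercise is a known aggravating factor.

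The libraries held 13204248 to 18060966 gene counts in the exercised heterozygotes and 12810795 to 20631839 in the exercised wild types. 2 libraries stood apart. Heterozygote 4 lay at 37.1 on the first principal component, which held 36.0% of the variance, against at most 6.98 in the other 9 libraries. Wild type 1 carried 46.9% of its counts on genes of the mitochondrial genome, against 20.8% to 38.1% in the other 9. Heterozygote 4 and wild type 5 were the only exercised libraries with a high level of Xist, the transcript of the inactive X chromosome, at 223 and 201 CPM (counts scaled to a common library total), and the other 8 had at most 1.25 CPM. Ddx3y, a gene of the Y chromosome, was at 0.0591 and 0.0764 CPM in those 2 libraries and at 63.6 to 83.5 CPM in the other 8. By both genes those 2 libraries read as female and the other 8 as male. The part of sex in the differences was not tested. The levels of defining cardiac myocyte genes overlapped between the groups, with a mean of 11.75 to 12.07 log2 CPM in heterozygotes and 11.74 to 12.21 in wild types. Counts and list medians that rest on heterozygote 4 or wild type 1 are given with and without them, as are the genes in which they stand out most. Values without wild type 5 are given in fewer places, among them the counts of called genes, Dsp and the heat shock list.

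Among 15587 genes tested, 63 passed an adjusted p of 0.05 (edgeR's quasi-likelihood test, Benjamini-Hochberg adjustment), which is 0.404% of the genes. Of these, 35 were higher (0.225% of all genes) and 28 lower (0.18%) in exercised heterozygotes. They are referred to as called. In 48 of the 63 the heterozygote and wild-type libraries did not overlap, as was the case for 287 genes, or 1.84%, of all those tested. The called genes included the dystrophin gene Dmd, the junction gene Ctnna3 and Dsp itself on the lower side, and the secreted protein gene Ndnf, the cytoplasmic protein gene Ndrg4 and the matrix enzyme gene Sulf2 on the higher side. By edgeR, none of 40 gene lists for heart, metabolism, signalling and cell types had more than 3 called members. The most was 3 of 54 matrix genes, beside 0.404% of all tested genes. DESeq2 and limma-voom, which called more genes in all, reached 5 of 27 heat shock genes and 5 of 29 immediate early genes.

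Dsp (GRCm38 chromosome 13, 38151294 to 38198577) was at 939, 822, 870, 903 and 705 CPM in exercised heterozygotes, against 1312, 1907, 1778, 1881 and 928 CPM in exercised wild types 1 to 5. Wild type 5 lay inside the range of the heterozygotes and the other 4 wild types lay above it. Dsp was 1.84-fold lower in exercised heterozygotes (log2 fold change -0.88, SE 0.19, adjusted p = 0.0287). At 6 months with regular activity the log2 fold change of Dsp was -0.33 (edgeR adjusted p = 0.657). Levels there were 581 to 680 CPM in heterozygotes and 636 to 1021 CPM in wild types. All exercised heterozygotes lay within that wild-type range, and exercised wild types 1 to 4 lay above it. The count covers the whole gene, exons outside the floxed stretch included. Its log2 fold change kept its size without heterozygote 4 (-0.90, edgeR adjusted p = 0.0896) and without wild type 1 (-0.95, edgeR adjusted p = 0.0211), and was -1.03 without wild type 5 (edgeR adjusted p = 0.00255), but 7 of the 10 libraries ended the call when 1 of them was left out. These were heterozygotes 2 to 5 and wild types 2 to 4, with adjusted p of 0.0528 to 0.109 (edgeR). The other 8 measured desmosome genes, Perp, Pkp2, Dsg2, Pkp4, Dsc2, Evpl, Ppl and Jup, had log2 fold changes between -0.20 and 0.35. None was called by edgeR, DESeq2 or limma-voom, and 1 had an unadjusted p under 0.05.

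Among the lower genes, those with the smallest p were Dmd, the pseudogene Rps2-ps10 and Ctnna3. Dmd and Ctnna3 encode parts of the myocyte membrane skeleton and of the intercalated disc. Dmd encodes dystrophin, the rod that links actin to the dystrophin-glycoprotein complex in the sarcolemma. It was at 149, 109, 122, 110 and 173 CPM in exercised heterozygotes, against 355, 481, 405, 409 and 391 CPM in exercised wild types. Every heterozygote was below every wild type, and Dmd was 3.08-fold lower (log2 fold change -1.62, SE 0.19, adjusted p = 2.6e-05). Of the 19 tested genes of the dystrophin complex Dmd was the only one called by edgeR, and DESeq2 and limma-voom called 2 each. Lama2, the laminin chain to which the complex binds outside the cell, was at -0.49 (SE 0.12, adjusted p = 0.0769) with all libraries. It passed without heterozygote 4 (-0.62, edgeR adjusted p = 0.0156) or without wild type 1 (-0.54, edgeR adjusted p = 0.0418). With another single library left out it came to -0.42, and its adjusted p reached 0.222 (edgeR).

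Ctnna3 encodes alpha-T-catenin, which joins cadherin complexes to actin in the mixed desmosome and adherens junctions of the heart and binds plakophilin. Its levels were 27.2, 21.8, 25.5, 11.6 and 30.6 CPM in exercised heterozygotes and 47.0, 60.4, 51.5, 55.0 and 63.01 CPM in exercised wild types. The groups did not overlap, and heterozygote 4 was the lowest of the 10. Ctnna3 was 2.38-fold lower (log2 fold change -1.25, SE 0.18, adjusted p = 0.00017) and stayed called without heterozygote 4, at -1.08. It was the only member of 20 adherens and gap junction genes called by edgeR, and DESeq2 called 2 and limma-voom 1. Kcnd2, a potassium channel subunit of the transient outward current in mouse ventricle, was the only member of 28 ion channel genes called by edgeR, and DESeq2 called 2 and limma-voom 1. It had 35.3, 28.6, 26.3, 16.1 and 27.5 CPM in exercised heterozygotes and 40.2, 52.4, 50.9, 66.6 and 43.8 CPM in exercised wild types (log2 fold change -0.93, SE 0.19, adjusted p = 0.021). The call ended without heterozygote 3 or 4 or wild type 2 or 4, with adjusted p of 0.0506 to 0.0912 (edgeR).

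Several of the lower genes cover a very long stretch of the genome. Dmd, Ctnna3, Pard3b, Immp2l, Dpyd and Kcnd2, 6 of the 28 lower genes or 21.4%, span over 500 kb from start to end, as do 140 of 15568 tested genes with a position, or 0.899%. None of the 35 higher genes does. The length of 500 kb was chosen after these values were seen. The median log2 fold change of all 140 long genes was -0.04 and 74 of them were below 0. Pard3b encodes a cell polarity scaffold, Immp2l a peptidase of the inner mitochondrial membrane and Dpyd the first enzyme of pyrimidine breakdown. Exoc2, a subunit of the exocyst that tethers secretory vesicles, has a shorter gene. It was at 9.88, 10.6, 13.1, 10.3 and 16.3 CPM in exercised heterozygotes and 28.7, 28.7, 24.6, 23.4 and 21.8 CPM in exercised wild types (log2 fold change -1.08, SE 0.19, adjusted p = 0.00471). Its groups did not overlap.

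The upstream sequence of the muscle dystrophin transcript is shown because Dmd had the smallest p of all genes tested. It runs from 250 bases before to 50 bases after the RefSeq start (GRCm38.p6, chrX:82948620-82948919, plus strand), and the capitals mark its single CArG box, the binding motif of serum response factor.
Dmd: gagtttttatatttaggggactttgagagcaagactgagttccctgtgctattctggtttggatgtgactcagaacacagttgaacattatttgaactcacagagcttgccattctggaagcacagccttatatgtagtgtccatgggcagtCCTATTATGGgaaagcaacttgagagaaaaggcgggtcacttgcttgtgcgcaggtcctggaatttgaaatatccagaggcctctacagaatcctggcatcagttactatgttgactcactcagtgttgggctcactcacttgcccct
The match begins 98 bases before the start. A second RefSeq start of Dmd had 0 matches in its window. A CArG box was found in 1 of 24 lower genes and 0 of 27 higher genes with a promoter sequence, and in 1.58% of the 10965 tested genes with one. It describes the letters of this window and no site of binding.

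The lower genes also included some enzymes. Adhfe1, a mitochondrial enzyme that oxidises 4-hydroxybutyrate, was at 68.0, 63.8, 96.7, 36.9 and 57.8 CPM in exercised heterozygotes and 118, 163, 131, 155 and 156 CPM in exercised wild types. All heterozygotes were below all wild types (log2 fold change -1.16, SE 0.20, adjusted p = 0.00471). Amy1, an amylase gene, was at 2.34, 2.77, 3.57, 0.532 and 4.80 CPM in heterozygotes and 6.94, 9.06, 10.7, 12.1 and 7.87 CPM in wild types (log2 fold change -1.74, SE 0.34, adjusted p = 0.00914), and was at -1.47 without heterozygote 4. Amylase genes are near-identical copies, so its count is uncertain. Its groups did not overlap. The transketolase gene Tkt (-0.66), the acyl-CoA thioesterase gene Acot7 (-0.64), the ornithine aminotransferase gene Oat (-0.45) and the mitochondrial ADP-ribose hydrolase gene Macrod1 (-1.52) were lower as well. For Tkt, Acot7, Oat and Macrod1 the call ended in 6, 4, 5 and 8 of the 10 fits that left out 1 library, with adjusted p up to 0.105, 0.125, 0.17 and 0.172 (edgeR). Without heterozygote 4 the log2 fold change was -0.52 for Acot7, -0.37 for Oat and -1.48 for Immp2l, which stayed called.

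**Figure D1:**
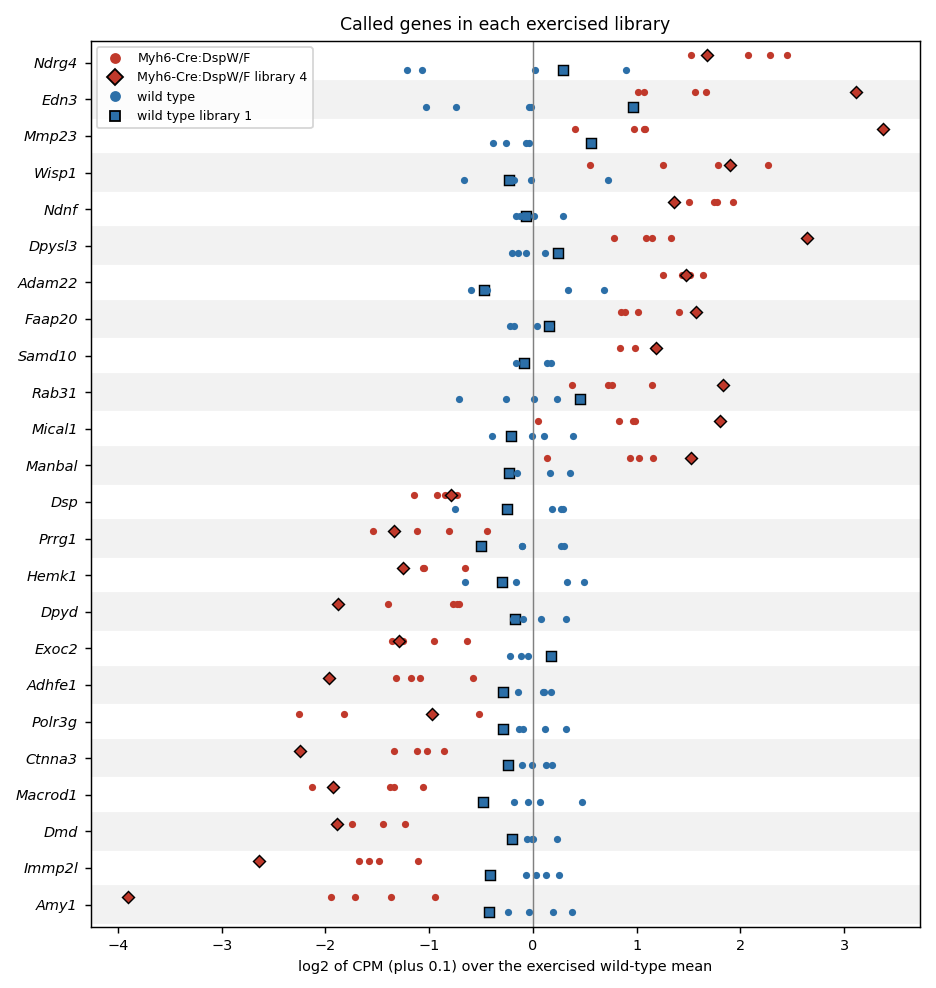
Each row is a called gene, with the 5 exercised Myh6-Cre:DspW/F libraries (red, upper) and the 5 exercised wild-type libraries (blue, lower). The x axis is the log2 of the CPM plus 0.1 over the wild-type mean plus 0.1, diamonds mark Myh6-Cre:DspW/F 4 and squares wild type 1. Genes are 12 higher and 11 lower ones with the largest changes by the rule for named genes, plus Dsp. Dmd and Ndnf separate the groups, and Myh6-Cre:DspW/F 4 lies at the far end in Mmp23, Edn3, Immp2l and Amy1.

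On the higher side, Ndrg4 and Ndnf separated the groups in every library. Ndrg4, a cytoplasmic protein of brain and heart needed for myocyte growth in zebrafish, was at 380, 725, 645, 423 and 558 CPM in exercised heterozygotes, against 161, 57.0, 62.9, 247 and 134 CPM in exercised wild types. The lowest heterozygote was above the highest wild type, and the fold was 4.12 (log2 fold change 2.04, SE 0.35, adjusted p = 0.0047). Ndnf, a secreted glycoprotein, was at 40.9, 36.1, 30.5, 27.6 and 36.7 CPM in heterozygotes and 10.2, 13.1, 9.78, 9.54 and 10.8 CPM in wild types. It was 3.21-fold higher (log2 fold change 1.68, SE 0.24, adjusted p = 0.000337), with both groups narrow and far apart.

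Sulf2, which trims sulfates from heparan sulfate chains outside the cell, was at 114, 136, 125, 114 and 95.6 CPM in exercised heterozygotes and 60.5, 73.7, 62.8, 55.5 and 69.8 CPM in exercised wild types (log2 fold change 0.86, SE 0.12, adjusted p = 0.00017). Pcolce, the enhancer of procollagen C-proteinase, was at 39.3, 56.6, 50.2, 67.6 and 40.0 CPM in heterozygotes and 34.3, 25.2, 22.8, 22.8 and 23.2 CPM in wild types (log2 fold change 0.99, SE 0.18, adjusted p = 0.0056). For both genes every heterozygote was above every wild type, and wild type 1 was the nearest to the heterozygotes in Pcolce. Adam22, a transmembrane ADAM protein without protease activity, was at 31.7, 38.2, 36.2, 37.2 and 41.7 CPM in heterozygotes and 9.58, 9.77, 8.77, 16.8 and 21.5 CPM in wild types (log2 fold change 1.48, SE 0.27, adjusted p = 0.0057). The matricellular gene Wisp1 (log2 fold change 1.71), the endothelin gene Edn3 (1.96), the metalloprotease gene Mmp23 (1.90) and the laminin receptor gene Bcam (0.46) were higher too. Their calls ended in 5, 4, 5 and 10 of the 10 fits that left out 1 library, with adjusted p up to 0.0726, 0.166, 0.423 and 0.182 (edgeR). Edn3 was at 1.39 without heterozygote 4 and 2.35 without wild type 1.

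Hk1 was the only member of 30 glucose use genes called by edgeR, and DESeq2 and limma-voom called 2 each. It encodes hexokinase 1, which commits glucose to use in the cell, and was at 300, 339, 316, 352 and 306 CPM in exercised heterozygotes and 189, 238, 221, 173 and 209 CPM in exercised wild types. The groups did not overlap (log2 fold change 0.65, SE 0.11, adjusted p = 0.0047). Among 12 genes listed for creatine and adenylate kinases and related energy genes, Ckb, the brain-type creatine kinase, was the only one called by edgeR (0.57, SE 0.13, adjusted p = 0.03). Tspo, a protein of the outer mitochondrial membrane, was at 28.6, 22.5, 28.1, 54.8 and 22.5 CPM in heterozygotes and 17.4, 14.3, 17.7, 14.7 and 16.0 CPM in wild types (log2 fold change 0.97, SE 0.18, adjusted p = 0.005). Heterozygote 4 was far above the rest, and the log2 fold change without it was 0.67. Bak1, a pore-forming protein of mitochondrial apoptosis, was higher at 0.87 (SE 0.18, adjusted p = 0.015), with wild type 1 inside the range of the heterozygotes, and was at 1.03 without that library. The call of Ckb ended in 7 and that of Bak1 in 4 of the 10 fits without 1 library, with adjusted p up to 0.143 and 0.079 (edgeR).

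The 4 largest folds on the higher side belonged to Irs4, the processed pseudogene Gm29667, AI593442 and Krt80. Irs4, an adaptor of the insulin receptor, had 74 counts over the 5 exercised heterozygotes, at 0.67, 0.83, 1.75, 1.18 and 0.665 CPM, and 0 counts in all 5 exercised wild types. Against a floor of 3 counts over the wild-type group it was at least 27.3-fold higher, a limit that covers counting error only (edgeR adjusted p = 0.005). Krt80, a keratin gene of epithelia, was at 1.42, 4.70, 2.80, 10.8 and 3.18 CPM in heterozygotes and 1.04, 0.533, 1.21, 0.32 and 0.84 CPM in wild types (log2 fold change 2.55, SE 0.45, adjusted p = 0.00471). AI593442, a gene with a provisional name picked here after its values were seen, was at 5.94, 8.64, 8.04, 6.98 and 4.43 CPM in heterozygotes and 1.25, 0.77, 0.381, 0.32 and 0.382 CPM in wild types (log2 fold change 3.45, SE 0.50, adjusted p = 0.000261). The groups did not overlap for Irs4, Krt80 and AI593442.

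The weight of single libraries differed from gene to gene. Heterozygote 4 was the highest of the 10 libraries for 21 of the 35 higher genes and the lowest for 18 of the 28 lower genes. Wild type 1 was the wild type nearest to the heterozygotes for 10 of the higher and 15 of the lower genes, and wild type 5 for 8 and 9. Without heterozygote 4 the number of called genes was 27, of which 25 were among the 63. Without wild type 1 it was 89, of which 50 were among the 63. Without both it was 44, with 35 of the 63 and 9 others. None of the 63 changed sign in these fits. Without wild type 5 and heterozygote 4, the 2 libraries with high Xist, 44 genes were called and 30 were shared. Leaving out wild type 1 as well gave 84, of which 39 were shared.

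A core of 22 genes, 13 higher and 9 lower, was called whichever single exercised library was left out of the fit over all 30 libraries. In a fit to the 10 exercised libraries alone, 8 of the 22 were called. The higher ones were Irs4, Gm29667, AI593442, Krt80, Ndrg4, Ndnf, Dpysl3, Adam22, Faap20, Pcolce, Tspo, Sulf2 and Hk1. The lower ones were Pard3b, Gpcpd1, Exoc2, Adhfe1, Ctnna3, Dmd, Immp2l, Amy1 and Rps2-ps10. Dpysl3 is a cytoskeletal phosphoprotein of growing axons, Faap20 a member of the Fanconi anaemia repair complex and Gpcpd1 an enzyme that splits glycerophosphocholine. At the other end, 29 genes were called in 5 or fewer of the 10 fits. Mmp23 was among those that leaned on heterozygote 4, with 19.6 CPM there against 2.43 to 3.94 CPM in the other heterozygotes, 1.36 to 2.71 CPM in wild types, and a log2 fold change of 0.95 without it against 1.90 with all libraries.

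The 9 genes called without heterozygote 4 and wild type 1, and not with all libraries, were Pck1, Atf3, Otud1, Cyr61 and Lama2 on the lower side and Arhgdia, Gnai2, Cyb5r3 and Ptms on the higher side. Their log2 fold changes had the same sign with all libraries, where their edgeR adjusted p lay between 0.052 and 0.146. Atf3, a stress-induced transcription factor, was at 22.9, 24.3, 30.9, 17.3 and 35.1 CPM in exercised heterozygotes and 20.5, 98.3, 76.0, 57.9 and 76.2 CPM in exercised wild types. Wild type 1 lay among the heterozygotes and the other 4 wild types lay above them. The log2 fold change was -1.33 with all libraries (edgeR adjusted p = 0.0891) and -1.57 without wild type 1 (edgeR adjusted p = 0.00918). With another single library left out it came to -1.15, and its adjusted p reached 0.285 (edgeR). Jun, Nr4a1 and Dusp1, immediate early genes that respond to stimuli within minutes, were likewise at -0.67, -1.07 and -0.65 with all libraries and were not called by edgeR. It called them without wild type 1, at -0.80, -1.25 and -0.76, but not without both wild type 1 and heterozygote 4. With other single libraries left out, their adjusted p reached 0.327, 0.209 and 0.349 (edgeR). In the list of 29 tested immediate early genes, 7 had a positive log2 fold change. Of the list, edgeR called 0 with all libraries, DESeq2 4 and limma-voom 5, and 6 had an unadjusted p under 0.05, all of them lower. The median was -0.24, against -0.01 and 48.6% positive for all tested genes.

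The 63 genes were then read in the other libraries, whose values take no part in the exercised fold change but share its estimate of spread and its filter. At 6 months with regular activity, 55 of them (87.3%) had the same sign of genotype difference, against 57.7% of all tested genes, and 31 had both the same sign and an unadjusted p under 0.05. At that age 8.79% of all tested genes had such a p in either direction. At 3 months 54 (85.7%) had the same sign, against 53.1% of all genes. Full calls were fewer. Of 21 genes called at 6 months with regular activity (0.135% of those tested) 10 were among the 63, namely Irs4, Ndnf, Pcolce, Acot7, Dcakd, Prrg1, Exoc2, Ctnna3, Dmd and Amy1. Of 30 called at 3 months (0.192%) only Ndnf was among them.

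The difference was nearer 0 in regular-activity mice for 58 of the 63 genes, a pattern that the choice of genes by their exercised values favours. The median log2 fold change of the higher genes was 1.04 in exercised, 0.34 in regular-activity and 0.24 in 3-month libraries. For the lower genes it was -0.94, -0.50 and -0.32. Ndnf held its size, at 1.68 in exercised mice, 1.65 in regular-activity mice and 1.80 at 3 months. Dmd was at -1.62, -1.22 and -0.62, and Exoc2 at -1.08, -1.28 and -0.79. At 3 months heterozygote 3 stood apart. Its Dmd was 336 CPM, against 127 to 160 CPM in the other heterozygotes and 238 to 335 CPM in wild types. Its Ndnf was 8.82 CPM, against 25.5 to 35.4 and 5.05 to 9.53 CPM. Its Dsp was 1126 CPM, against 573 to 741 and 752 to 1299 CPM. That library is part of all 3-month values here, and fits without it were not run. Ndrg4 did not repeat in regular-activity mice of 6 months, at 2.04 in exercised and -0.13 in regular-activity mice. Its interaction of genotype with exercise was 2.18 (edgeR adjusted p = 0.249), so a difference between the conditions was not shown for it. Over all genes 2 (0.0128%) passed that interaction test, Aqp6 and the pseudogene Rps2-ps10, while 765 had an unadjusted p under 0.05.

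**Figure D2:**
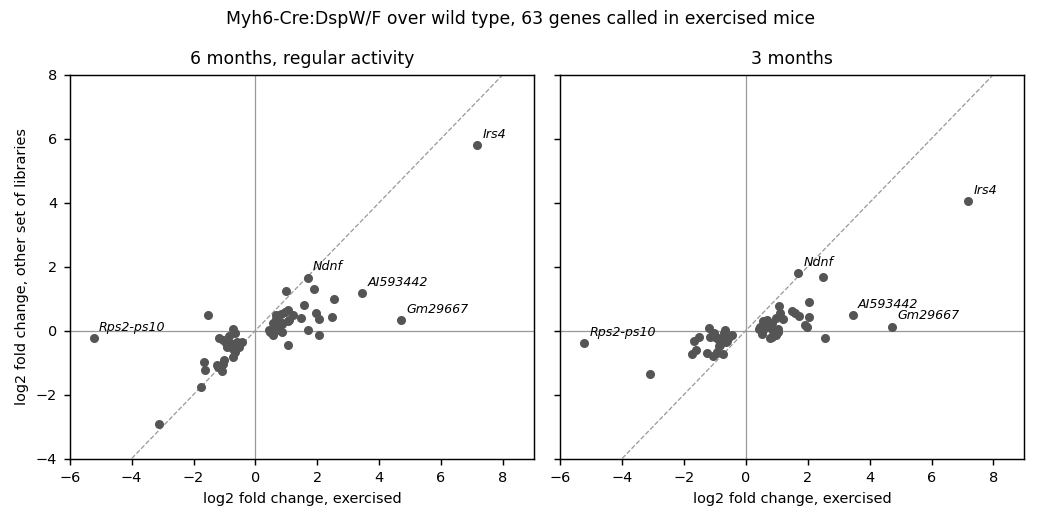
Each point is 1 of the 63 genes called in exercised mice. The x axis is its log2 fold change there and the y axis its log2 fold change at 6 months with regular activity (left) or at 3 months (right), Myh6-Cre:DspW/F over wild type, and the dashed line marks equal values. The sign is the same on both axes for 55 points on the left and for 54 on the right. Most lie nearer 0 than the dashed line, and Ndnf lies on it at 6 months.

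Heat shock proteins are chaperones that fold and rescue other proteins, and their genes are switched on together by the factor Hsf1 under heat, load or protein damage. None of the 27 tested members of this list was called by edgeR with all libraries, 12 had an unadjusted p under 0.05 (11 of them lower), and DESeq2 called 5 and limma-voom 3. The log2 fold change was below 0 for 23 members and the median was -0.25, against 48.6% positive and a median of -0.01 for all tested genes. The share of all tested genes with an unadjusted p under 0.05 in the exercised comparison is not given here, for this list or the others. The mean level of the list was 6.44, 6.38, 6.52, 6.50 and 6.42 log2 CPM in heterozygotes, against 6.65, 6.75, 6.97, 6.69 and 6.67 log2 CPM in wild types. All 5 heterozygotes lay below all 5 wild types. It was the only 1 of 40 lists with levels that did not overlap.

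Hspa1b, the main inducible Hsp70, was at 14.5, 20.3, 23.7, 21.9 and 18.02 CPM in exercised heterozygotes and 63.6, 65.7, 69.5, 44.1 and 46.1 CPM in exercised wild types. It was 2.93-fold lower in the fit and missed the threshold (log2 fold change -1.55, SE 0.39, adjusted p = 0.087). Its copy Hspa1a was at 5.02, 3.66, 9.72, 10.3 and 9.38 CPM in heterozygotes and 20.2, 21.7, 21.03, 14.9 and 22.5 CPM in wild types (log2 fold change -1.39, SE 0.39, adjusted p = 0.119). The 2 genes are near-identical, so the split of reads between them is uncertain, but the levels of both genes ran the same way and did not overlap between groups. Hsph1, a large co-chaperone of Hsp70, was at 18.4, 15.0, 15.6, 14.0 and 15.9 CPM in heterozygotes and 27.5, 26.7, 30.3, 24.1 and 19.9 CPM in wild types (log2 fold change -0.70, SE 0.20, adjusted p = 0.12).

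The co-chaperone genes Dnaja1 (log2 fold change -0.61) and Hspe1 (-0.38) also had levels that did not overlap. Hspd1, the mitochondrial Hsp60 that works with Hspe1, was at -0.43 (SE 0.12, adjusted p = 0.12). Without wild type 1 it was called, at -0.51, but not without both wild type 1 and heterozygote 4. With another single library left out, the adjusted p of Hspd1 reached 0.393 (edgeR). Leaving out heterozygote 4, wild type 1, both, wild type 5 with heterozygote 4, or all 3 left between 24 and 25 of the 27 members below 0 and a list median between -0.29 and -0.20. In libraries of other mice its median was -0.05 at 6 months with regular activity, with 10 of 27 members above 0, and 0.08 at 3 months, with 16 of 27 above 0. For Hspa1b the interaction of genotype with exercise was -1.87 (edgeR adjusted p = 0.553), so that difference did not pass its test, and the difference of the list medians was not tested.

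**Figure D3:**
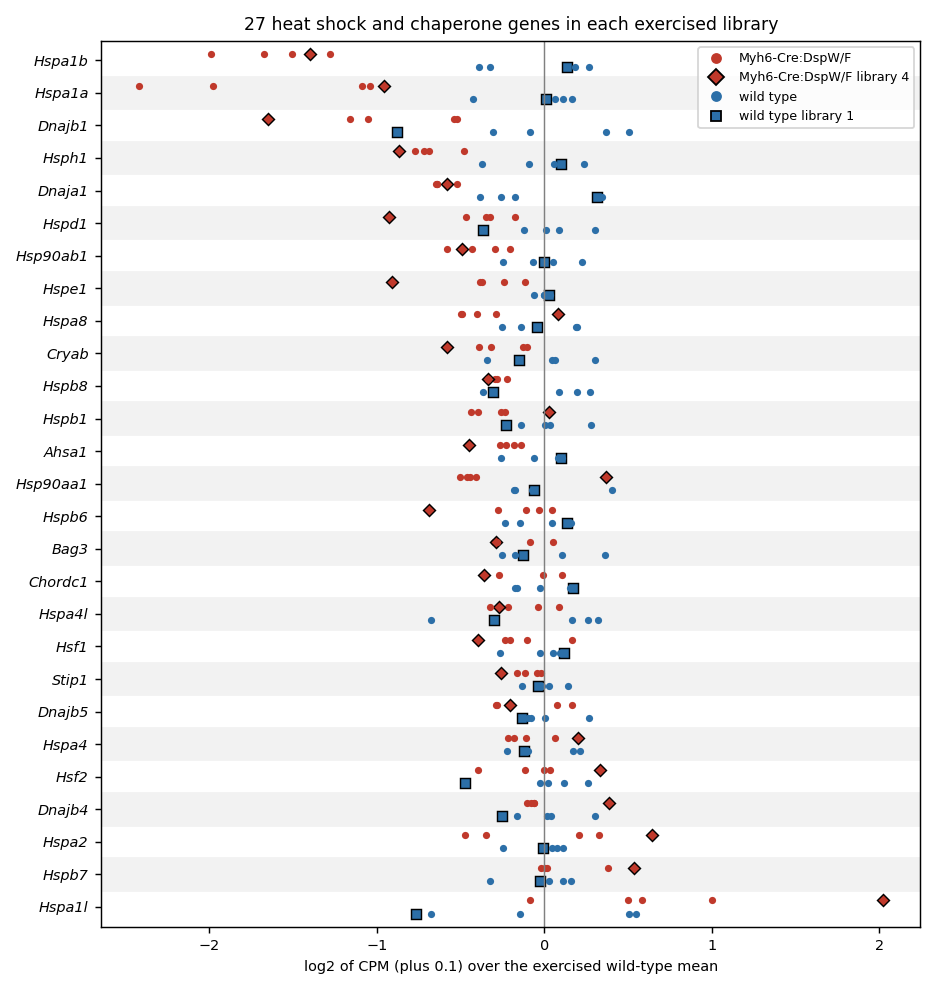
The 27 heat shock genes are ordered by log2 fold change, with exercised Myh6-Cre:DspW/F libraries in red (upper) and exercised wild-type libraries in blue (lower). The x axis is the log2 of the CPM plus 0.1 over the wild-type mean plus 0.1. Hspa1b, Hspa1a, Hsph1, Dnaja1 and Hspe1 have no overlap, and Hspa1l lies above 0 mainly through Myh6-Cre:DspW/F 4.

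Promoters of 3 of these genes are shown because heat shock genes share a known control element. A search for the inner repeat of the heat shock element, GAANNTTC, which reads the same on both strands, found it in 11 of the 22 heat shock genes with a RefSeq promoter and in 6.89% of all 10965 tested genes with one. The motif was chosen after the values were seen, and a match is a description of letters. The windows run from 250 bases before to 50 bases after the start (RefSeq, GRCm38.p6), all 3 on the minus strand, and capitals mark the match. A gene with several RefSeq starts counted when any of its windows held the motif. Hsph1 and Hspd1 have 2 starts each, and the second window of Hsph1 overlaps the one shown while that of Hspd1 holds 0 matches. The windows shown are chr17:34959189-34959488 for Hspa1b, chr5:149636266-149636565 for Hsph1 and chr1:55087883-55088182 for Hspd1. Relative to the start, the match begins at -104 in Hspa1b, -139 in Hspd1 and 20 in Hsph1, so that of Hsph1 lies after the start.
Hspa1b: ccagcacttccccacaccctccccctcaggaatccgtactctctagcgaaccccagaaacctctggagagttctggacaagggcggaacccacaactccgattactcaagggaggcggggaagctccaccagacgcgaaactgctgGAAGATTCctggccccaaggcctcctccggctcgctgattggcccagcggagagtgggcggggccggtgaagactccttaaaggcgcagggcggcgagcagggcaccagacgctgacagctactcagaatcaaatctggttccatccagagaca
Hsph1: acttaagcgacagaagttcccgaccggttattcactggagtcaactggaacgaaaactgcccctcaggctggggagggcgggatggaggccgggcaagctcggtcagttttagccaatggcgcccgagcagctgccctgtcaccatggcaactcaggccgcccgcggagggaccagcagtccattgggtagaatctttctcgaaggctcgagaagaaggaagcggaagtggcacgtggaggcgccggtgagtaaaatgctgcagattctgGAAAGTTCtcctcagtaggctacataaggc
Hspd1: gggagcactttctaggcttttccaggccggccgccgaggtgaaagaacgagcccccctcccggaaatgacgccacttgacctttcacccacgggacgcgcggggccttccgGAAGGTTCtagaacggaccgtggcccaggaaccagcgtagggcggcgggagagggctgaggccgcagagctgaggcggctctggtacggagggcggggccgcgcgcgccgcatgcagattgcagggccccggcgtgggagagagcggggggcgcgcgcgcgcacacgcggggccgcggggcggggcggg

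Genes of mitochondrial fuel use were mostly below 0 in exercised heterozygotes, by small amounts. For these and the following lists, 48.6% of all tested genes were positive with all libraries, with a median of -0.01. Of 58 nuclear genes of oxidative phosphorylation 56 had a negative log2 fold change (median -0.19). None was called by edgeR or DESeq2 and 1 by limma-voom, and 10 had an unadjusted p under 0.05. In a list of 38 genes for the TCA cycle, branched-chain amino acid breakdown and related steps, 37 were negative (median -0.22). Its only call by edgeR was Adhfe1, whose enzyme oxidises 4-hydroxybutyrate. DESeq2 called 1 and limma-voom 3, and 12 had an unadjusted p under 0.05. Of 44 genes of fatty acid oxidation 36 were negative (median -0.21). None was called by edgeR or DESeq2 and 3 by limma-voom, and 16 had an unadjusted p under 0.05. Heterozygote 4 had the lowest level of all 3 lists. Without it the medians were -0.09, -0.12 and -0.12, and without both heterozygote 4 and wild type 1 they were -0.15, -0.20 and -0.17. At 6 months with regular activity the medians of these lists were -0.12, -0.25 and -0.30. In these bulk libraries fewer cells of a type and less RNA per cell cannot be told apart. The cardiac myocyte markers had a median of -0.19 over 14 genes, with 4 above 0, so they moved by a similar amount, and their part in the shift of the fuel genes was not tested.

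Genes of wall stress mark myocytes under load, such as the natriuretic peptide gene Nppa and the slow myosin gene Myh7. Nppa was at 127, 68.0, 43.7, 1329 and 164 CPM in exercised heterozygotes and 49.5, 34.7, 39.7, 18.3 and 82.2 CPM in exercised wild types. Its groups overlapped, with heterozygote 4 far above all others, and it was not called (log2 fold change 2.95, SE 1.01, adjusted p = 0.261). Without heterozygote 4 it was at 1.17 (edgeR adjusted p = 0.874). Myh7 was at 1140, 808, 631, 8370 and 728 CPM in heterozygotes and 257, 772, 486, 604 and 895 CPM in wild types (log2 fold change 1.95, SE 0.59, adjusted p = 0.176), and at 0.46 without heterozygote 4. Nppb, the B-type peptide, was at 0.29 with all libraries and -0.22 without heterozygote 4. Tgfb2, a growth factor of fibrosis, was above every wild type in all 5 heterozygotes, by a narrow margin in heterozygote 3, at 12.1, 18.9, 9.72, 70.9 and 11.2 CPM in heterozygotes and 6.32, 8.41, 9.53, 9.70 and 8.48 CPM in wild types (log2 fold change 1.54, SE 0.38, adjusted p = 0.0706). Heterozygote 4 was far above the rest here too. With 1 exercised library left out, Tgfb2 ran from 0.61 to 1.71, with adjusted p of 0.0239 to 0.442 (edgeR). The wall stress list as a whole had 20 of 23 genes above 0 and a median of 0.39 with all libraries, and 14 of 23 and 0.10 without heterozygote 4.

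Lists for matrix and for cells other than myocytes depended on the same pair of libraries. In the extracellular matrix list 44 of 54 genes were above 0, with a median of 0.58 and Pcolce, Wisp1 and Mmp23 called. Without heterozygote 4 the count was 21 of 54 and the median -0.15, with 1 call. Without wild type 1 the count was 49 of 54 and the median 0.92. Without both it was 43 of 54 and 0.26. The mean list level was 2.75, 3.55, 3.37, 5.16 and 3.40 log2 CPM in heterozygotes and 4.12, 2.65, 2.92, 2.83 and 3.15 log2 CPM in wild types. Heterozygote 4 was the highest library and wild type 1 the next, and the groups overlapped. In regular-activity mice at 6 months 51 of the 54 were above 0 (median 0.78).

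Markers of macrophages followed that order, with 12 of 13 genes above 0 and a median of 0.54. Their median was -0.00 without heterozygote 4, 1.22 without wild type 1 and 0.63 without both. Fibroblast markers had medians of 0.29, -0.15, 0.62 and 0.18 in the same 4 settings, starting with all libraries. Endothelial markers were at -0.45 with 3 of 20 genes above 0, and at 0.13 with 15 of 20 above 0 once wild type 1 was left out. Their mean level was 6.73 log2 CPM in wild type 1 against 4.57 to 5.25 in the other wild types and 4.32 to 5.53 in heterozygotes. None of the 50 marker genes of these 3 cell types was called by edgeR with all libraries, 10 had an unadjusted p under 0.05, and DESeq2 and limma-voom called 1 each. How far such cells in the preparations take part in the matrix gene values was not tested.

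**Figure D4:**
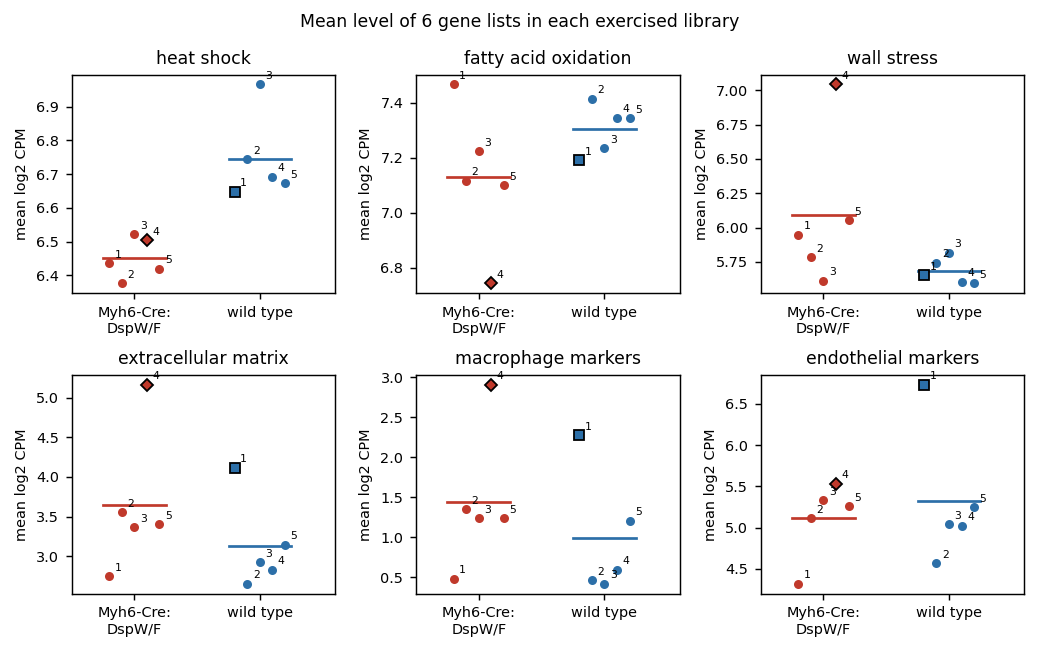
Mean log2 CPM of 6 gene lists in each exercised library, Myh6-Cre:DspW/F on the left and wild type on the right, numbered by replicate, with bars at group means. Heat shock levels do not overlap, whereas Myh6-Cre:DspW/F 4 (diamond) leads the wall stress, matrix and macrophage lists and wild type 1 (square) the endothelial list. Axes do not start at 0.

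**Figure D5:**
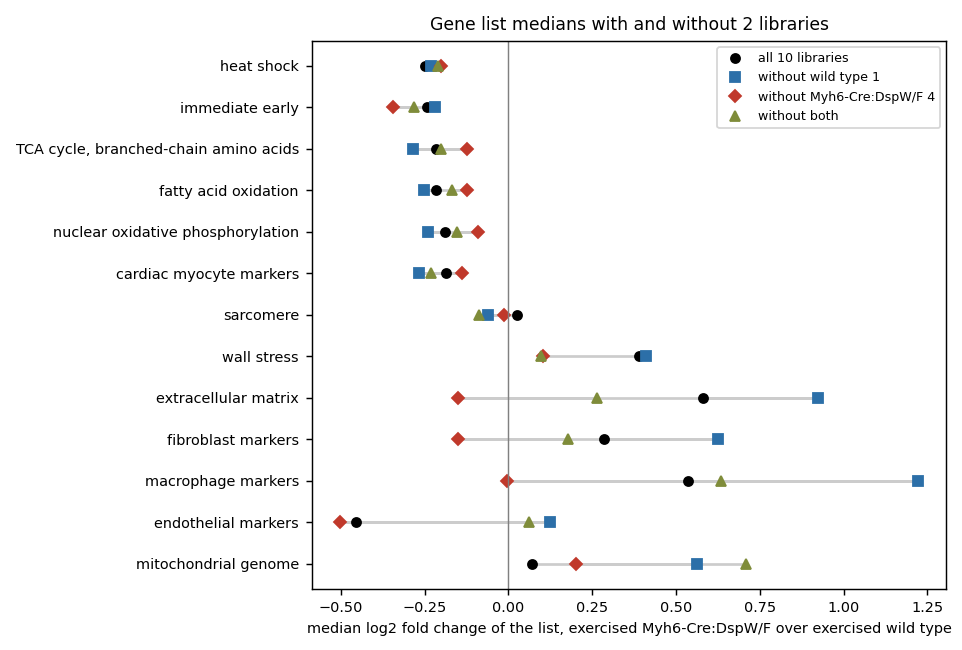
Median log2 fold change of 13 gene lists, exercised Myh6-Cre:DspW/F over exercised wild type, with all 10 libraries (black), without wild type 1 (blue), without Myh6-Cre:DspW/F 4 (red) and without both (green). Heat shock and fuel lists stay below 0 in all 4 settings. The matrix median runs from -0.15 to 0.92 and the endothelial median from -0.50 to 0.13.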

How the data were processed

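The deposited table gives counts per gene for 30 libraries. The authors trimmed reads with Trim Galore, aligned them to mm10 with HISAT2 and counted them with featureCounts, per the submitters' processing notes, and the versions and the strand setting are not given in the sources used here. Ribosome-depleted, strand-specific libraries were made from total RNA, per the labels' protocols.

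The 23 spike-in rows were left out of library sizes and tests. The counts were scaled by TMM factors and fitted with edgeR 4.0.16 (quasi-likelihood, robust) in R 4.3.3 over all 30 libraries and 6 groups (24 residual degrees of freedom). Genes were kept by filterByExpr, which left 15587. CPM use TMM-scaled library sizes, and log2 CPM a prior count of 2. Called means a Benjamini-Hochberg adjusted p under 0.05. The SE is the log2 fold change over the square root of F. Depth sets the counting error only. Alternatives were DESeq2 1.42.0, limma-voom (limma 3.58.1), other scaling and filters, a replicate block and omitted libraries. The fit was tested on simulated data.

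The members, gene lists and tests were chosen with earlier results of these data known. Named genes were Dsp, called genes with a settled symbol (every library shown for the 12 largest in each direction with mean log2 CPM of at least 1 and 9 of 10 libraries on their group's side, of which 1 is not reported here), up to 3 members of a list by p, and the stress and junction genes. AI593442, Gm29667, Rps2-ps10, Aqp6, the heat shock and immediate early genes beyond 3 per list, and genes called only without some libraries were chosen after their values were seen. Positions are from GENCODE M21 (GRCm38).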

Additional observations from a re-analysis of the deposited data

Results flagged for a closer look

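Within each group of 5 exercised libraries, a library was marked when its gap to the nearest other exceeded 0.71 of the group's range. Chance marks about 1 in 20 independent groups, and 29 of 268 groups were marked. The groups share the same 10 libraries, and some genes were picked for the weight of heterozygote 4 or wild type 1. The rate expected by chance therefore does not apply to this count. Heterozygote 4 was marked as high in Mmp23 (19.6 CPM), Tspo (54.8 CPM), Myh7 (8370 CPM), Cyb5r3 (181 CPM) and Adipoq (0.296 CPM), and as low in Acot7 (25.7 CPM), Tesc (11.8 CPM), Oat (105 CPM) and Ppil1 (12.2 CPM). Heterozygote 5 was low in Ckb (30.3 CPM) and heterozygote 1 in Cyr61 (115 CPM). Wild type 1 was high in Pcolce (34.3 CPM) and Gnai2 (188 CPM) and low in Otud1 (28.2 CPM). Wild type 4 was low in Hspa1a (14.9 CPM), wild type 2 in Aqp6 (0.474 CPM), and wild type 5 in Tesc (32.2 CPM) and Rps2-ps10 (0.764 CPM).

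Among mean list levels on the log2 CPM scale, heterozygote 4 was low in ion channels (5.53) and the circadian clock (4.71), and high in insulin signalling (5.75) and Wnt (3.26). Wild type 1 was low in sarcomere genes (9.96). It was high in the mitochondrial genome (12.6), TGF-beta and BMP (4.19), Hippo and YAP (4.44), endothelin and angiotensin (3.98) and the cell cycle (1.54). Its mitochondrial share was 46.9% of counts, against 20.8% to 25.9% in the other wild types.

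The genotype difference itself differed between exercised and regular-activity mice for 2 genes with all libraries by edgeR. Both calls ended without heterozygote 1, 2 or 3, or without heterozygote 4 and wild type 1 together, and 7 passed without wild type 5. Rps2-ps10, a processed pseudogene whose reads may be shared with its parent gene, was at 0.839 to 1.18 CPM in exercised heterozygotes and at 47.8, 48.8, 43.8, 47.2 and 0.764 CPM in exercised wild types. All 20 other libraries were between 0.269 and 1.64 CPM, and the interaction was -5.00 (edgeR adjusted p = 0.0172). Aqp6, a water channel gene, was at 0.0837, 0.138, 0, 0.709 and 0 CPM in exercised heterozygotes and 9.44, 0.474, 13.7, 16.9 and 8.86 CPM in exercised wild types. In regular-activity mice it was at 0.111 to 15.0 CPM in heterozygotes and 0 to 0.145 CPM in wild types. Its interaction was -13.0 (edgeR adjusted p = 0.0172), a fitted value that leans on libraries at 0.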

How the results depend on the processing

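Against 63 called genes (35 higher, 28 lower), the 10 exercised libraries alone gave 13 (8 and 5), DESeq2 200 (118 and 82), limma-voom 194 (104 and 90) and an adjusted p under 0.01 gave 22 (13 and 9). All 63 were among the DESeq2 calls. The mitochondrial share as a covariate gave 55 higher genes and no low-count filter 18 lower genes. Without the libraries with high Xist 18 were lower, and without wild type 1 as well 45 were. Leaving out 1 exercised library gave 25 to 89 called genes, 14 to 53 higher and 10 to 47 lower. The 2 interaction calls became 5 without the filter, 13 with limma-voom, 8 with DESeq2, 0 at 0.01, 0 without wild type 1 and heterozygote 4, 7 without the high-Xist libraries, 7 without all 3, and 0 to 7 with 1 library left out. Dsp, at -0.88, missed an adjusted p of 0.01. Its log2 fold change was -0.90 without the filter (adjusted p = 0.0906), -0.88 in exercised libraries alone (0.115), -0.96 without wild type 1 and heterozygote 4 (0.0691), -0.95 with both choices (0.0798), and -1.03 to -0.81 with 1 library left out. Nppb turned to -0.21 with limma-voom, -0.22 without heterozygote 4, -0.34 without wild type 1 and heterozygote 4, -0.32 with the exercised libraries alone as well, -0.35 without the high-Xist libraries and -0.53 without all 3, and ran from -0.22 to 0.54 with 1 library left out. None of the other genes followed through all these alternatives changed sign. Some desmosome genes near 0, which were not followed through all of them, did. Pkp4 went from 0.16 to -0.03 without heterozygote 4. Without wild type 1, Dsc2 went from 0.08 to -0.01, Jup from 0.005 to -0.006 and Ppl from -0.09 to 0.17. The cause of these shifts was not tested. Same-numbered libraries correlated between -0.41 and 0.14. The best-matching wild type had the same number for heterozygotes 2 and 3, but not for heterozygotes 1, 4 and 5. These values cannot exclude that same-numbered libraries share a batch. A replicate block gave 20 calls (10 and 10), 1 interaction call and 19 genes shared with the 63. At the depth of these libraries, genes near 1 CPM rest on few counts.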

Other observations

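Markers of fat cells had lower values in exercised heterozygotes, without a call. All 7 tested adipocyte markers had a negative log2 fold change with a median of -2.48, edgeR called 0 of them, 4 had an unadjusted p under 0.05, and DESeq2 called 2 and limma-voom 1. Without wild type 1, 2 of the 7 were positive and the median was -2.77. In regular-activity mice the median was -0.43 and at 3 months 0.41. Adipoq, the adiponectin gene, was at 0, 0, 0, 0.296 and 0 CPM in exercised heterozygotes and 0.0694, 2.49, 1.21, 0.692 and 3.21 CPM in exercised wild types. Cidec, a lipid droplet protein gene, was at 0 to 0.42 CPM in heterozygotes and 0.486 to 5.35 CPM in wild types. The mean level of the list was -0.38 to 1.52 log2 CPM in heterozygotes and 1.51 to 3.16 in wild types, so the groups met at heterozygote 4 and wild type 1. Hba-a1, a haemoglobin gene of red cells, was at 1.77 to 18.4 CPM in heterozygotes and at 29.2, 141, 20.5, 8.42 and 1.07 CPM in wild types, which overlapped. The part of such cells in the other values was not tested.

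Clock and interferon genes gave no call. Of 21 circadian clock genes 10 had a positive log2 fold change (median -0.02), with 0 called by edgeR, DESeq2 or limma-voom and 0 with an unadjusted p under 0.05. Of 37 interferon-induced genes 16 were positive (median -0.07), with 0 called by those 3 tools and 1 with an unadjusted p under 0.05, and without wild type 1 the median was 0.07. In regular-activity mice the median was -0.41 for the clock genes and 0.48 for the interferon-induced genes. Lcn2, the lipocalin gene of the inflammation list, was at 7.12, 9.75, 19.3, 16.9 and 11.3 CPM in exercised heterozygotes and 4.79, 2.67, 3.56, 3.25 and 2.22 CPM in exercised wild types. Its groups did not overlap, yet it was not called (log2 fold change 1.97, SE 0.92, adjusted p = 0.49 by edgeR). On the Dsp chromosome 4 of 620 tested genes (0.645%) were called, and within 20 Mb of the Dsp start 3 of 257 (1.17%), Dsp among them, against 0.404% of all tested genes.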
